A study of Homo sapiens with 6 samples.

Results

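The DEAD and DEAH box genes encode the largest family of RNA helicases. The members described here are the 52 protein-coding genes of a table of 58735 genes whose names start with DDX or DHX and a digit, 36 of them named DDX and 16 DHX. The 3 coding genes with such names, the antiviral sensor encoded by DDX58 and the related DDX60 and DDX60L, were left out by the rule, as were 33 genes of other biotypes, nearly all of them pseudogenes. Levels were measured by sequencing polyadenylated RNA of Raji, a human Burkitt lymphoma B-cell line, here carrying a fused GFP and firefly luciferase reporter. One group of 3 libraries came from cells kept overnight at 37 °C with bryostatin-1 at 1 nM, and the other group of 3 came from cells given the solvent DMSO instead. Bryostatin-1 is a macrolide that binds and activates protein kinase C. The labels do not say that the libraries of a group came from separate cultures, so a p-value here speaks only of how these libraries scatter, and that scatter may be technical.

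RNA helicases of this family use ATP to open short RNA duplexes or to strip proteins from RNA. They share a core of 2 domains like that of the bacterial protein RecA. Each step of an RNA's life has its own members, from transcription and splicing to nuclear export, translation and decay, and ribosome assembly in the nucleolus uses many of them. The family takes its name from motif II, a run of 4 residues in the first core domain that holds the magnesium ion and water used to split ATP.

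The name of a gene and its motif II did not always match. In the GENCODE 29 coding sequences, 30 of the 36 DDX genes had DEAD at motif II, 2 had DECD, 2 had DEVD, 1 had DESD and 1 had DEAH. Of the 16 DHX genes 8 had DEAH, 4 had DEVH, 2 had DEIH, 1 had DECH and 1, DHX32, gave no match to the search. Stretches of 42 coding bases are shown, 5′ to 3′, for members to which the results return, with the 4 codons of motif II in capitals.
DDX5 (DEAD): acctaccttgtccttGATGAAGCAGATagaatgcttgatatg
DDX17 (DEAD): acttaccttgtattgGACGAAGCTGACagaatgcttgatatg
DDX51 (DEAD): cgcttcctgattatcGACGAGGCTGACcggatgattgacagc
DDX39A (DECD): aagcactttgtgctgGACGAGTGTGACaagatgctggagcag
DDX39B (DECD): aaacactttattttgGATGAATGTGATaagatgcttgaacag
DDX21 (DEVD): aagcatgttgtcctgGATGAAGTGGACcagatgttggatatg
DDX50 (DEVD): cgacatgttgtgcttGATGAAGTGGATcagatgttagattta
DHX16 (DEAH): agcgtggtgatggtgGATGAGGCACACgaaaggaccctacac
DHX9 (DEIH): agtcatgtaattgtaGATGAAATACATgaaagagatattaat
DDX11 (DEAH): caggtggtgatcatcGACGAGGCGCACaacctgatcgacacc
The DECD letters were found in the paralogs DDX39A and DDX39B, and the DEVD letters in the paralogs DDX21 and DDX50. DDX11, a DNA helicase with a DDX name, had the DEAH letters.

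The libraries held between 19405370 and 24468270 reads counted to genes, so that a gene with 0 reads could still have had up to 3, or 0.123 to 0.155 CPM (counts scaled to library size), by counting error alone. All 8 B-cell markers were above 1 FPKM (fragments scaled to exon length and library size), as were 1 of 6 T-cell markers, 0 of 5 myeloid markers and 0 of 6 epithelial or fibroblast markers, 3 of which were at 0 in each library. The summed level of the T-cell markers ranged from 3.26 to 11.9 FPKM with DMSO and from 3.53 to 13.6 FPKM with bryostatin. Nearly all of that sum was the 1 marker above 1 FPKM, TRAC, at 3.12 to 13.5 FPKM over the 6 libraries. The next highest, CD3E, reached at most 0.32 FPKM. DMSO replicate 3 stood apart from the other DMSO libraries. In a list of 30 cell cycle genes its median deviation from the mean of the 6 libraries was 0.25 on the log2 scale, beside -0.63 and -0.42 in DMSO replicates 1 and 2 and 0.47, 0.20 and 0.23 in the bryostatin libraries. All 30 of these genes had a positive log2 change, 18 of them at an unadjusted p under 0.05, with a median of 0.57. Over all tested genes 53.9% had a positive log2 change, and 10.5% were higher at that unadjusted p. Of the 30, 0 had an adjusted p under 0.05 by limma, the smallest being 0.217. The part of the cell cycle genes in the results on the helicases was not tested. The 8 B-cell markers ordered the libraries otherwise. Their median deviations were 0.05, 0.24 and -0.25 in the DMSO libraries and 0.12, -0.20 and 0.03 in the bryostatin libraries.

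Of the 52 members, 45 reached a mean of 1 FPKM over the 6 libraries and were tested. Their means ran from 2.61 FPKM for DHX57 to 108 FPKM for DDX21, with a median of 14.7 FPKM beside 6.88 FPKM over all 11071 tested genes. The 6 most abundant members were DDX21, DDX5, DHX9, DDX17, DDX39A and DDX1, and they held 40.5% of the members' summed FPKM. All members together took 0.306%, 0.317% and 0.366% of the summed FPKM of the DMSO libraries and 0.375%, 0.343% and 0.359% of that of the bryostatin libraries. The ranges overlapped, because DMSO replicate 3 lay above bryostatin replicates 2 and 3. Across the 3 bryostatin libraries the median coefficient of variation of a tested member was 7.06%, beside 9.46% for all tested genes, and across the 3 DMSO libraries it was 8.91%, beside 11.8%.

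**Figure D1:**
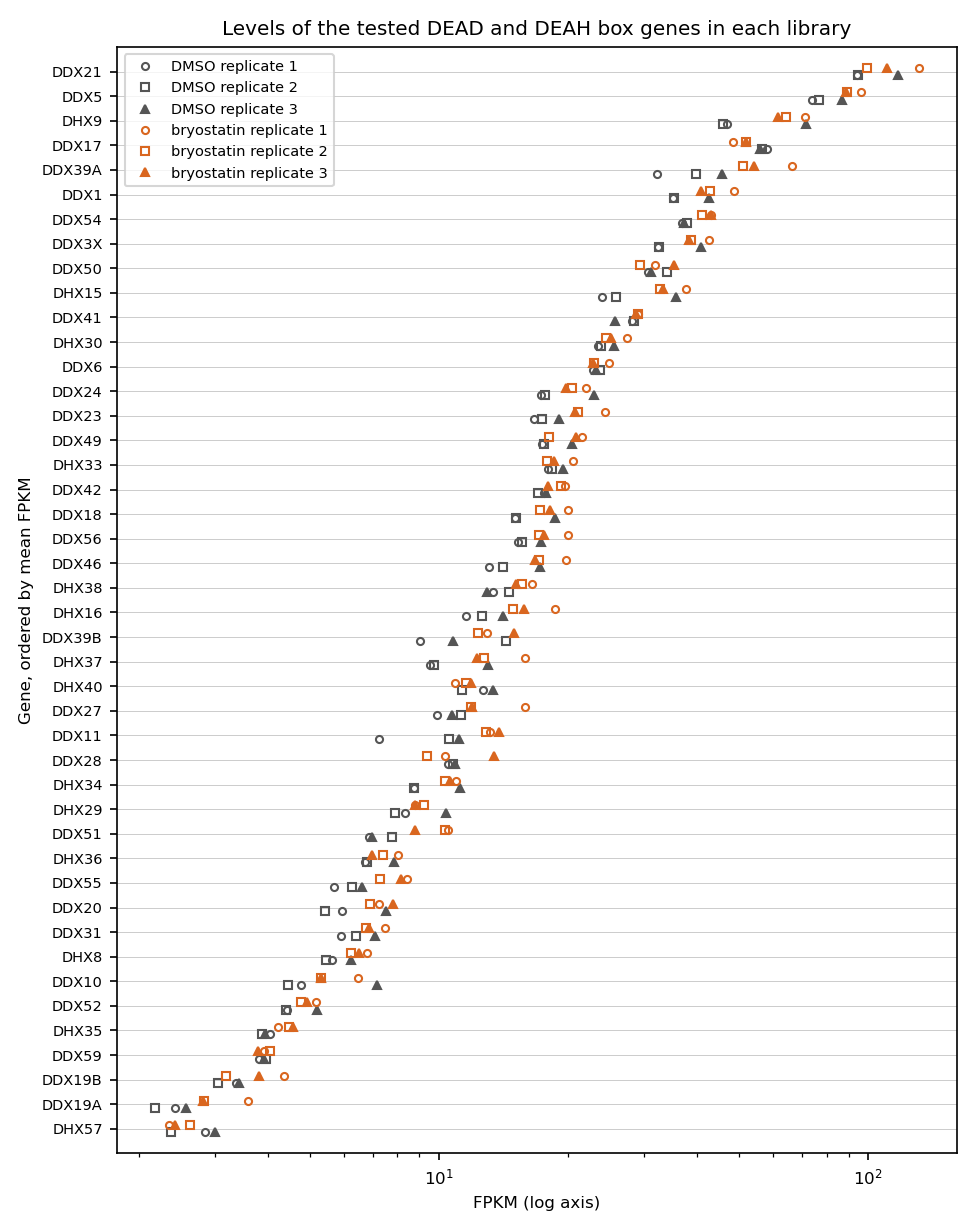
FPKM of each tested member except the Y-linked DDX3Y in each of the 6 libraries, on a log axis, ordered by mean. Gray symbols are DMSO and orange symbols bryostatin libraries, and the 2 filled triangles are the replicates numbered 3. DDX21 is at the top with a mean of 108 FPKM, and the groups overlap for most genes.

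The remaining 7 members were under 1 FPKM. DHX58, which encodes the antiviral regulator LGP2, ranged from 0.18 to 0.63 FPKM. DDX4, the germ cell helicase Vasa, had 24 reads over the 6 libraries and DDX25, a testis helicase, had 1. DDX43 and DDX53, known as cancer-testis antigens, had 0 reads in each library, which allows up to 0.056 FPKM for DDX43 and 0.044 FPKM for DDX53. Both are listed at 0 in every library, and no fold is given. DHX32 ranged from 0.051 to 0.20 FPKM.

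DDX47, which takes part in ribosome assembly, was listed at 0.18 to 0.30 FPKM. Its exons share 36.5% of their bases with the exons of APOLD1 on the same strand. How reads on shared exons were counted is not given in the sources used here, so the level of DDX47 is uncertain.

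No member passed the test. With limma on log2(FPKM + 1) and Benjamini-Hochberg adjustment over 11071 genes, 0 of 45 members and 0 of all tested genes (0%) had an adjusted p under 0.05. The smallest adjusted p of a member was 0.216, that of DDX51. At an unadjusted p under 0.05, 9 of 45 members had a higher level with bryostatin and 0 a lower one, beside 10.5% and 7.18% of all tested genes. With voom on the reads recovered from the FPKM values the adjusted count was 0 and the unadjusted counts of members were 9 and 0. The direction was shared by most members: 42 of 45 (93.3%) had a positive log2 change, beside 53.9% of all tested genes. The median log2 change was 0.15 over the members and 0.02 over all tested genes. In 14 members each bryostatin library lay above each DMSO library and in 1 member, DDX17, each lay below, beside 12.9% and 10.7% of all tested genes. On the log2(FPKM + 1) scale, which shrinks folds at low FPKM, the 95% interval lay within a 2-fold change either way for 45 of 45 members. It lay within 1.5-fold for 37. The same shares over all tested genes were not computed.

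The 3 members with a negative log2 change were DDX17, DHX40 and DHX57. The DDX genes had a median of 0.17 over 31 tested and the DHX genes one of 0.14 over 14. With values rescaled to TPM 36 of 45 members had a positive log2 change, beside 45.6% of all tested genes, and after quantile normalization 36 did, beside 48.6%. The members' median stood 0.14 above that of all tested genes as deposited, 0.14 with TPM and 0.10 after quantile normalization. Quantile normalization took the log2 change of DDX17 to -0.28, of DDX5 to 0.11, of DDX1 to 0.11, of DHX9 to 0.18, of DHX38 to 0.13 and of DDX21 to 0.040. Over all genes at an unadjusted p under 0.05, 1159 were higher and 795 lower as deposited, 848 and 1099 with TPM, and 893 and 1017 after quantile normalization.

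One control library moved these counts in the members and over all genes. Without DMSO replicate 3, 19 members (42.2%) had an unadjusted p under 0.05, beside 25.8% of all tested genes in either direction. In the same 5 libraries the groups did not overlap for 35 members that were higher and 1 that was lower, beside 26.8% and 19.7% of all tested genes. In that fit 267 of 11071 tested genes had an adjusted p under 0.05 by limma, and 0 of the 45 members did. At so low a share, 0 of 45 does not set the members apart from all tested genes. The smallest adjusted p of a member was 0.0521. For DMSO replicate 3, the average of the bryostatin libraries was closer than that of DMSO replicates 1 and 2 in 29 of 45 members (64.4%), beside 54.6% of all tested genes. DMSO replicate 3 lay above each bryostatin library for 9 members, and the share over all tested genes was not computed. Among the 9 were DHX9 and the members with a negative log2 change, DDX17, DHX40 and DHX57. Leaving out DMSO replicate 1 or bryostatin replicate 1 left 4 members (8.89%) at an unadjusted p under 0.05, close to the 8.75% and 8.25% of all tested genes in those fits. Leaving out bryostatin replicate 3 left 5 (11.1%), beside 13.4%.

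**Figure D2:**
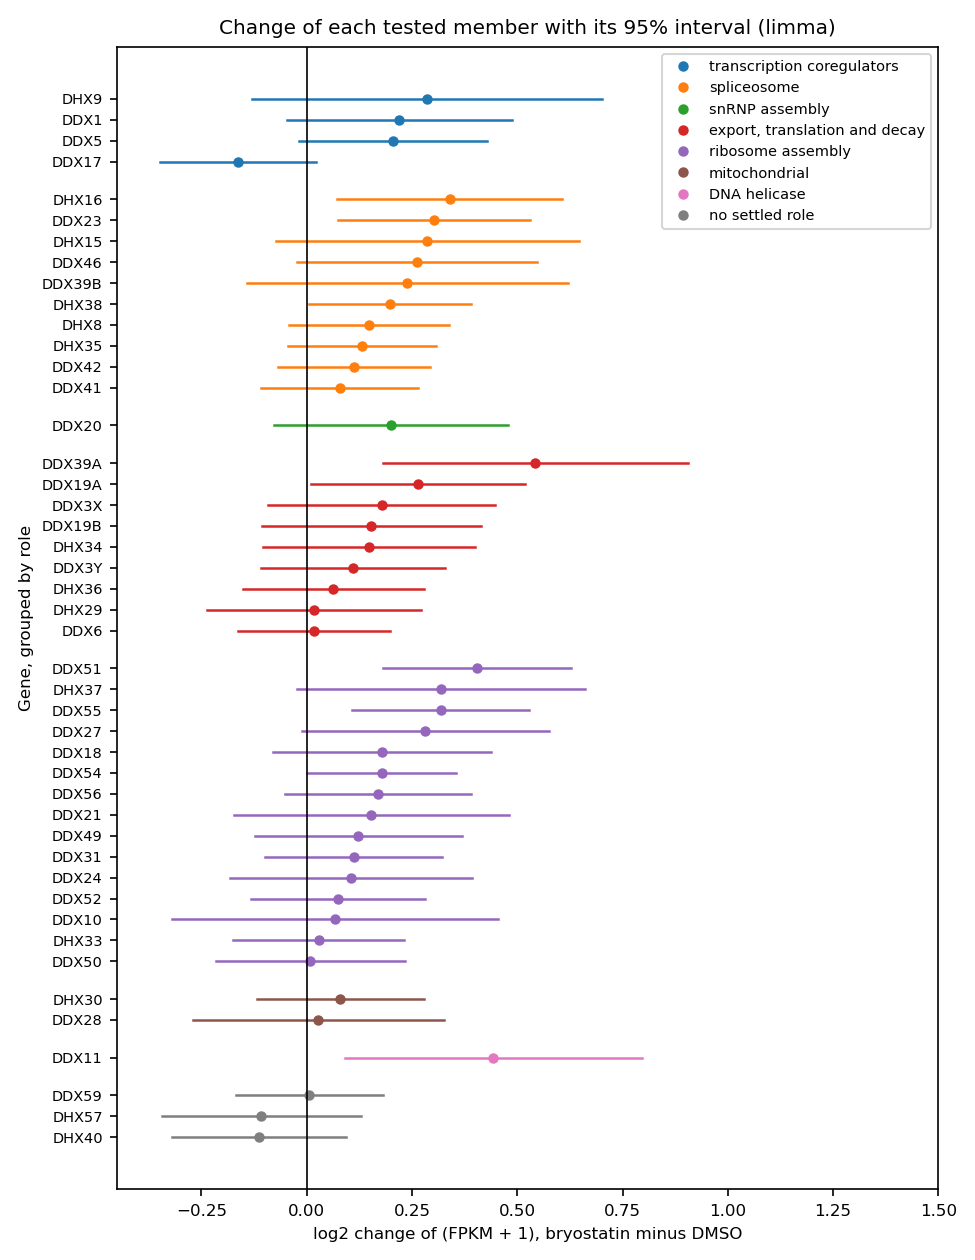
Log2 change of (FPKM + 1), bryostatin minus DMSO, of the 45 tested members, as points with 95% intervals from limma, grouped and colored by role. 42 points lie right of 0, and DDX39A lies farthest right at 0.54.

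Transcription coregulators held 4 of the 6 most abundant members. DDX5, which encodes the coregulator p68 (ENSG00000108654, hg38 chr17:64499616-64508199), was at 74.1, 76.8 and 86.9 FPKM in the DMSO libraries and at 96.1, 89.4 and 88.8 FPKM in the bryostatin libraries. Its groups did not overlap, but DMSO replicate 3 came close to the lowest bryostatin library. The log2 change was 0.21 ± 0.09 (SE, n = 3 per group) with an adjusted p of 0.310 by limma. DDX17, which encodes p72, the paralog of p68 (ENSG00000100201, chr22:38483440-38507660), was at 58.2, 56.5 and 55.9 FPKM with DMSO and at 48.4, 51.9 and 51.9 FPKM with bryostatin. Each bryostatin library lay below each DMSO library, and DMSO replicate 3 was close to the other DMSO libraries. DDX17 had a log2 change of -0.16 ± 0.08 (SE, n = 3 per group) with an adjusted p of 0.322 by limma.

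DHX9, which encodes RNA helicase A, was at 46.9, 45.9 and 71.7 FPKM with DMSO and at 71.2, 64.2 and 61.8 FPKM with bryostatin. DMSO replicate 3 was the highest of the 6 libraries and the other DMSO libraries were the lowest, so the groups overlapped. The log2 change of DHX9 was 0.28, and it was 0.17 without DMSO replicate 2 and 0.49 without DMSO replicate 3. DDX1, whose product also works in tRNA ligation, had a log2 change of 0.22 with overlapping groups.

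Spliceosomal helicases drive the remodeling steps of splicing, from the first pairing of the branch site to the release of the spent complex. Among the members 10 have this role, and all were tested. All 10 had a positive log2 change, beside 53.9% of all tested genes, with a median of 0.22. At an unadjusted p under 0.05, 3 of them were higher, beside 10.5% of all tested genes. Helicases with other names, such as SNRNP200 (log2 change 0.02) and AQR (-0.08), are not among the 10. In 6 of the 10 each bryostatin library lay above each DMSO library, beside 12.9% of all tested genes. DHX16 (ENSG00000204560, chr6:30653119-30673037), the human form of yeast Prp2, which activates the spliceosome, was at 11.6, 12.6 and 14.1 FPKM with DMSO and at 18.6, 14.9 and 15.8 FPKM with bryostatin. Each bryostatin library lay above each DMSO library. The log2 change was 0.34 ± 0.11 (SE, n = 3 per group) with an adjusted p of 0.232 by limma.

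DDX23 (ENSG00000174243, chr12:48829764-48852842), the Prp28 helicase of the U5 particle, was at 16.6, 17.4 and 19.0 FPKM with DMSO and at 24.4, 21.1 and 20.7 FPKM with bryostatin. There was no overlap, and bryostatin replicate 1 was the highest library. Its log2 change was 0.30 ± 0.10 (SE, n = 3 per group), with an adjusted p of 0.227 by limma. DHX38, the Prp16 helicase of the second catalytic step, had a log2 change of 0.20 and an adjusted p of 0.273, with no overlap. DHX15, the Prp43 helicase that takes spent complexes apart, was the most abundant of these genes with a mean of 31.5 FPKM. Its log2 change of 0.29 came with overlapping groups, since DMSO replicate 3 was at 35.6 FPKM, and was 0.45 without that library and 0.18 without DMSO replicate 1. DDX20, also called Gemin3, belongs to the SMN complex that loads Sm proteins onto spliceosomal RNAs and had a log2 change of 0.20 with overlapping groups, which was 0.11 without DMSO replicate 2 and 0.32 without DMSO replicate 3.

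Ribosome assembly had the most members, 16, of which 15 were tested. All 15 had a positive log2 change with a median of 0.15, 3 had an unadjusted p under 0.05, and in 4 the groups did not overlap, beside 53.9%, 10.5% and 12.9% of all tested genes for these 3 counts in the higher direction. DDX51 (ENSG00000185163, chr12:132136594-132144335), a nucleolar helicase of the large subunit pathway, had the smallest p of any member. It was at 6.88, 7.77 and 6.98 FPKM with DMSO and at 10.5, 10.3 and 8.79 FPKM with bryostatin. The groups did not overlap, and DMSO replicate 3 was level with DMSO replicate 1. Its log2 change was 0.40 ± 0.09 (SE, n = 3 per group) with an adjusted p of 0.216 by limma, and the 95% interval ran from 0.18 to 0.63.

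DDX55 (ENSG00000111364, chr12:123602077-123620941), another large subunit helicase, was at 5.69, 6.28 and 6.60 FPKM with DMSO and at 8.41, 7.30 and 8.17 FPKM with bryostatin. Each bryostatin library lay above each DMSO library. Its change on the log2 scale was 0.32 ± 0.09 (SE, n = 3 per group) with an adjusted p of 0.217 by limma. Its exons share 9.38% of their bases with EIF2B1 on the opposite strand. The strand setting of the counting is not given in the sources used here, so reads on those bases cannot be assigned with certainty. The same doubt holds, among others, for DDX54 (9.89% shared on the opposite strand), DHX38 (12.2%) and DDX28 (22.5%). DDX54 was the ninth and last member with an unadjusted p under 0.05, and it was named after its values were seen. Its log2 change was 0.18.

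DDX21, a nucleolar helicase that also acts on transcription by RNA polymerase I, was the most abundant member. It was at 94.2, 94.7 and 117 FPKM with DMSO and at 131, 99.5 and 111 FPKM with bryostatin. DMSO replicate 3 lay above bryostatin replicates 2 and 3, so the groups overlapped. Its log2 change was 0.15 with an adjusted p of 0.571 by limma, and it was 0.047 without bryostatin replicate 1, 0.10 without DMSO replicate 1, 0.25 without bryostatin replicate 2 and 0.26 without DMSO replicate 3. Its paralog DDX50 had a log2 change of 0.01, and the sign of that value turned in several alternatives.

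Export, translation and decay factors numbered 9, all were tested, and each had a positive log2 change with a median of 0.15. Over all tested genes 53.9% had a positive one. DDX39A (ENSG00000123136, chr19:14408819-14419383), an mRNA export helicase, had the largest change of any member. It was at 32.2, 39.7 and 45.5 FPKM with DMSO and at 66.3, 51.2 and 54.2 FPKM with bryostatin. There was no overlap between groups, with DMSO replicate 3 the highest control and bryostatin replicate 1 the highest library. The log2 change was 0.54 ± 0.15 (SE, n = 3 per group), a 1.46-fold difference on the log2(FPKM + 1) scale, with an adjusted p of 0.217 by limma.

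DDX19A, which releases mRNA from export factors at the nuclear pore, was at 2.42, 2.18 and 2.57 FPKM with DMSO and at 3.59, 2.84 and 2.82 FPKM with bryostatin. The groups did not overlap, and the log2 change was 0.26 with an adjusted p of 0.270 by limma. DDX19A shares 23.8% of its exonic bases with AC012184.2, a coding gene on the same strand that also shares 15.7% of those of DDX19B. In addition 5.30% of the 100-base windows of DDX19A occur in DDX19B, so the levels of both are uncertain. The log2 change of DDX19B was 0.15, and it was 0.067 without bryostatin replicate 1 and 0.25 without bryostatin replicate 2. The translation factor DDX3X, which helps ribosomes scan structured leaders, had a log2 change of 0.18. The decay factor DDX6, a core protein of processing bodies, had one of 0.02.

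DDX11 (ENSG00000013573, chr12:31073845-31104791) unwinds DNA and works in sister chromatid cohesion. It was at 7.24, 10.5 and 11.1 FPKM with DMSO and at 13.1, 12.8 and 13.8 FPKM with bryostatin. The groups did not overlap, and DMSO replicate 1 was the lowest library by far. DDX11 had a log2 change of 0.44 ± 0.15 (SE, n = 3 per group) with an adjusted p of 0.232 by limma, and it was 0.27 without DMSO replicate 1. The pseudogene DDX12P was at 7.59, 14.1 and 13.1 FPKM with DMSO and at 18.8, 16.7 and 17.5 FPKM with bryostatin. Of the 100-base windows of DDX11, 4.71% occur in DDX12P, and 17.5% of those of DDX12P are shared, so the split of reads between them is uncertain.

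The mitochondrial helicases had a median log2 change of 0.05 over 2 tested genes, DHX30 and DDX28. DHX30, which binds mitochondrial transcripts and ribosomes, was at 23.4, 23.8 and 25.6 FPKM with DMSO and at 27.5, 24.5 and 25.2 FPKM with bryostatin. DMSO replicate 3 lay above bryostatin replicates 2 and 3. The log2 change was 0.080, and 0.033 without bryostatin replicate 1. Of the 3 tested members without a settled role, DHX40 was the most abundant at a mean of 11.9 FPKM, and its log2 change was -0.11 with overlapping groups, -0.17 without DMSO replicate 2 and -0.063 without DMSO replicate 3.

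**Figure D3:**
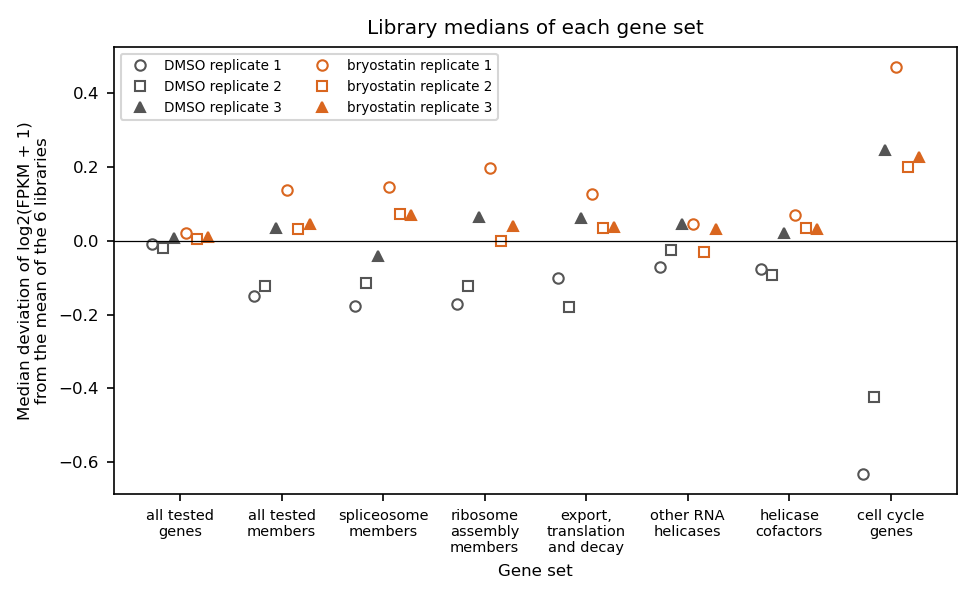
Median deviation of log2(FPKM + 1) from the mean of the 6 libraries for 8 gene sets, 1 symbol per library, gray for DMSO and orange for bryostatin. For all tested members DMSO replicates 1 and 2 are at -0.15 and -0.12 and bryostatin replicate 1 is at 0.14, while DMSO replicate 3 (filled gray triangle) is at 0.03, level with bryostatin replicates 2 and 3 at 0.03 and 0.04.

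Related helicases were compared as ratios within a library, in 4 pairs. The ratio of DDX5 to DDX17 was 1.27, 1.36 and 1.55 in the DMSO libraries and 1.99, 1.72 and 1.71 in the bryostatin libraries. Each bryostatin library lay above each DMSO library. The difference was 0.37 on the log2 scale, or 1.30-fold, with an exact two-sided permutation p of 0.1, the smallest that 3 against 3 can give, and 0.4 adjusted over the 4 pairs. DDX5 alone was higher and DDX17 alone lower in each bryostatin library than in each DMSO library, so this ratio had to separate the groups. Its p therefore adds nothing to the results on those genes. No pair could reach an adjusted p under 0.05 in this design. A ratio within a library does not say which of its genes differs.

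The ratio of DDX39A to DDX39B was 3.57, 2.77 and 4.23 with DMSO and 5.13, 4.15 and 3.62 with bryostatin. The groups overlapped, and the exact permutation p was 0.4. The difference of 0.29 on the log2 scale was 0.13 without DMSO replicate 2 and 0.16 without bryostatin replicate 1. The ratio of DDX21 to DDX50 differed by 0.15 on the log2 scale with an exact permutation p of 0.4. That difference was 0.033 without bryostatin replicate 1, 0.052 without DMSO replicate 2, 0.23 without bryostatin replicate 3 and 0.27 without DMSO replicate 3. The ratio of DDX19A to DDX19B differed by 0.17 with an exact permutation p of 0.2, and by 0.10 without bryostatin replicate 2. The coding sequences were 95.3% identical between DDX19A and DDX19B, 80.0% between DDX39A and DDX39B, 69.1% between DDX21 and DDX50 and 68.7% between DDX5 and DDX17. Only the DDX19 pair, among these 4, shared any 100-base window.

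**Figure D4:**
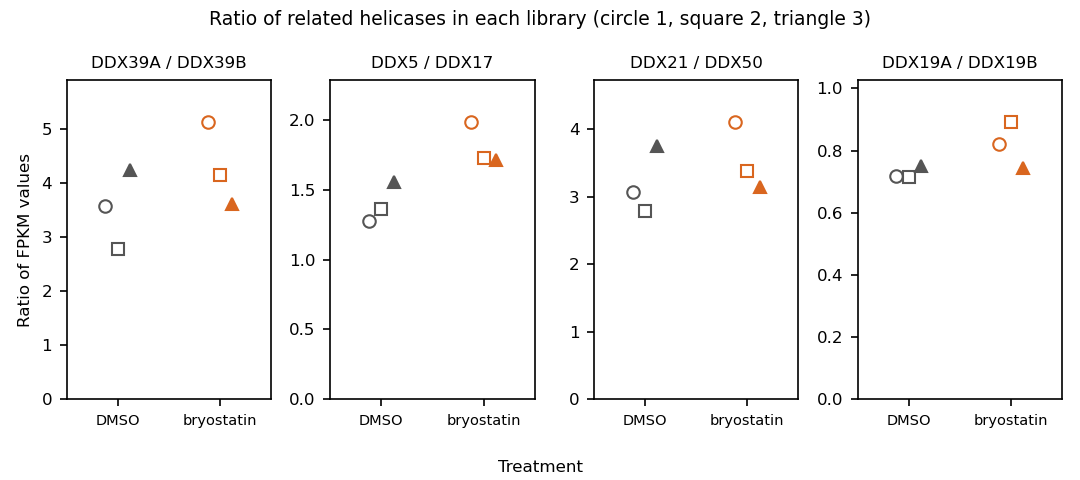
Ratio of FPKM values of 4 pairs of related helicases in each library, on linear axes from 0, with DMSO in gray and bryostatin in orange. The DDX5 to DDX17 ratio lies between 1.27 and 1.55 with DMSO and between 1.71 and 1.99 with bryostatin, without overlap, and the other 3 pairs overlap.

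DDX39B, the TREX and splicing helicase UAP56, was at 9.02, 14.3 and 10.8 FPKM with DMSO and at 12.9, 12.3 and 14.99 FPKM with bryostatin, with overlapping groups. The log2 change was 0.24, and it was 0.098 without DMSO replicate 1 and 0.41 without DMSO replicate 2. Its exons share 29.7% of their bases (2079) with the readthrough gene ATP6V1G2-DDX39B on the same strand, which had 0 to 4 reads per library. The level of DDX39B is uncertain for that reason, since the handling of reads on shared exons is not given in the sources used here. Of the 52 members, 23 shared no exonic base with another gene, and 4 shared over 10% on the same strand.

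The members lie on 19 chromosomes, with 7 each on chromosomes 12 and 17. The 6 tested members on chromosome 12 had a median log2 change of 0.32, and the 6 on chromosome 17 had one of 0.09. Medians of all tested genes on these chromosomes were not computed, so the values describe the members only. DDX51, DDX55, DDX23 and DDX11 are all on chromosome 12. DDX50 and DDX21 lie 9280 bases apart on chromosome 10, and DDX19B and DDX19A lie 11545 bases apart on chromosome 16.

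Promoter windows from RefSeq (GRCh38.p14), 250 bases before to 50 after the start, were matched for 41 of the 45 tested members. The letters CCGGAA, the core of many ETS factor sites, were found on either strand in 27 of 41 (65.9%), beside 33.7% of the 7723 tested genes with a window and 17.6% of all 27305. The E-box CACGTG was in 7 of 41 (17.1%), beside 10.8% and 7.43%. CCAAT was in 18 of 41 (43.9%), beside 38.5% and 35.7%. Windows of the neighbors DDX21 and DDX50, of DDX55 and of DDX5 are shown on the gene's strand, 5′ to 3′, with the searched letters in capitals.
DDX21 (plus strand, chr10:68956090-68956135): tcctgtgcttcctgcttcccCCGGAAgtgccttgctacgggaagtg
DDX50 (plus strand, chr10:68901247-68901292): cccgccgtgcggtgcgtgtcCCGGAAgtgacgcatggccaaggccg
DDX55 (plus strand, chr12:123602004-123602049): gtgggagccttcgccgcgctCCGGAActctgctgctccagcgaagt
DDX5 (minus strand, chr17:64506643-64506688): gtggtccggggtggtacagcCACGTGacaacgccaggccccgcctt
A match describes the letters in the window and is not a measured binding site.

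Other RNA helicases, such as the EIF4A and SKI2-like genes, numbered 19 tested of 24 in the table. Of these 8 had a positive (42.1%, beside 53.9% of all tested genes) and 11 a negative log2 change, with a median of -0.03. An unadjusted p under 0.05 was found for 1 in each direction, 10.5% together, beside 17.6% of all tested genes. EIF4A3, the exon junction helicase, was at 16.6, 16.6 and 21.4 FPKM with DMSO and at 23.3, 22.8 and 21.0 FPKM with bryostatin, with a log2 change of 0.29 and an adjusted p of 0.263 by limma. IFIH1, the antiviral sensor MDA5, had a log2 change of -0.34 and an adjusted p of 0.255. UPF1, the helicase of nonsense-mediated decay, had a log2 change of 0.22, and HELZ had one of -0.18.

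Partners and cofactors of the helicases numbered 53 tested, 39 with a positive and 14 with a negative log2 change and a median of 0.10. Over all tested genes 53.9% had a positive log2 change, with a median of 0.02. At an unadjusted p under 0.05, 8 cofactors were higher and 2 lower, beside 10.5% and 7.18% of all tested genes. In either direction this was 18.9% of the cofactors, close to the 17.6% of all tested genes. MAGOH, an exon junction protein that binds EIF4A3, was at 10.5, 15.4 and 10.5 FPKM with DMSO and at 27.5, 20.5 and 18.4 FPKM with bryostatin. The groups did not overlap, and the log2 change was 0.82 with an adjusted p of 0.216 by limma. Its paralog MAGOHB had a log2 change of 0.74. ALYREF, the export adaptor that binds DDX39B, was at 50.6, 57.4 and 83.8 FPKM with DMSO and at 127, 95.4 and 96.0 FPKM with bryostatin. The groups did not overlap, DMSO replicate 3 was the highest control, and the log2 change was 0.74 with an adjusted p of 0.217 by limma. LSM14B, a partner of DDX6, had a log2 change of 0.41. The 2 cofactors that were lower at an unadjusted p under 0.05 were CNOT1 and PATL1, with log2 changes of -0.28 and -0.24.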

How the data were processed

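The authors deposited FPKM values (fragments scaled to exon length and library size) for 58735 genes with gene lengths, in 6 libraries of polyadenylated RNA. Per the submitters' processing notes, the build was hg38 and the tools included featureCounts 1.5.0-p3, HISAT2 2.0.5, DESeq2 1.20.0 and CASAVA, in roles not stated. For the strand setting and the treatment of shared exons, the method is not given in the sources used here. The deposited gene lengths equalled the union of GENCODE 29 exons for all 58735 genes. FPKM times length gave whole reads, within 0.02 reads, for 100% of values.

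The 11071 genes averaging 1 FPKM or more were tested on log2(FPKM + 1) values, using limma 3.58.1 (R 4.3.3) with an intensity trend and Benjamini-Hochberg adjustment. Alternatives were the pseudocount, the filter, scaling, gene length, moderation, voom on the recovered reads, a replicate block and leaving out each library.

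The members and lists were chosen with earlier results of these data known. Members were named if they had an adjusted p under 0.05, one of the 8 smallest p-values, one of the 6 highest means, the highest mean of a role, or a place in 1 of 4 pairs. From the 2 other lists up to 4 genes with the smallest p were named. SNRNP200, AQR, CNOT1 and PATL1 were named in addition, after their values were seen. Further members are given as examples of their role. Replicates of a group differed beyond sampling noise.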

Additional observations from a re-analysis of the deposited data

How the results depend on the processing

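Of 318 alternative values of the named members' log2 changes, 310 kept their direction and 0 passed the adjusted threshold. The 8 that reversed were all of DDX50, whose value was 0.01 as reported. It was -0.039 with TPM, -0.013 with median-of-ratios scaling, -0.081 after quantile normalization, -0.068 with the length trend removed and -0.0096 with voom, and ran from -0.057 to 0.069 with 1 library left out. The count of all genes with an adjusted p under 0.05, 0 as reported, was 1 with a pseudocount of 0.1, 1 with TPM, and 0 to 267 with 1 library left out, 267 being without DMSO replicate 3. At an unadjusted p under 0.05, the members' count of 9 ran from 4 to 19 with 1 library left out, while the share of all tested genes, 17.6% as reported, ran from 8.25% to 25.8%. With TPM 6 members were higher and 1 lower (15.6%), beside 17.6% of all tested genes. Median-of-ratios scaling and quantile normalization each gave 7 higher and 1 lower (17.8%), beside 17.6% and 17.3%. With the length trend removed 11 were higher and 0 lower (24.4%), beside 16.0%. The count of other RNA helicases, 2 as reported, was 1 with TPM or quantile normalization and 0 to 2 with 1 library left out. Without DMSO replicate 3, an alternative chosen after seeing the data, the members whose groups did not overlap went from 15 to 36, and all tested genes from 12.9% higher and 10.7% lower to 26.8% and 19.7%.

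The values gave no sign that the replicate numbers pair the libraries. Deviations of same-numbered libraries from their group means correlated at -0.29, -0.32 and -0.11, and no library correlated best with its own number. With 3 libraries per group such deviations are tied to each other, so they cannot say whether same-numbered libraries shared a culture. A replicate block gave 4 members, 0 other RNA helicases and 6 of the cofactors (10 as reported) at an unadjusted p under 0.05, beside 10.8% of all tested genes. The tested members had means of 337 to 13270 reads per library, so the 3 libraries per group set the limit: a change smaller than their spread could not be detected.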
